A study of Homo sapiens with 8 samples.

Results

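The ISG15 conjugation machinery was taken as 6 genes named by symbol in the gene column of both deposited tables: ISG15, UBA7, UBE2L6, HERC5, HERC6 and USP18. All 6 were found once in each table, among 60595 listed genes, and all 6 had been tested by the authors in both comparisons. The cells were SUM159, an established line of human breast cancer, grown with insulin and hydrocortisone. The groups were cells with an shRNA against FOXO1 delivered by lentivirus under 10 uM olaparib (shFoxO1 olaparib), cells with a control shRNA under the same dose (shCon olaparib) and control cells in the solvent DMSO (shCon DMSO), each held for 3 days. Olaparib inhibits the DNA repair enzymes PARP1 and PARP2, and FOXO1 is a transcription factor that insulin signalling holds out of the nucleus. The labels name 2 libraries in each group and do not say whether these came from separate cultures, nor how many shRNA sequences or clones were used. The group shFoxO1 DMSO is not analysed here, so the response to the shRNA without the drug is not described. The tables hold 1 FPKM value (a level scaled by transcript length and library size) for each gene and group. No SD can therefore be given, and depth is unknown. A called gene is one whose q in the authors' deposited table did not exceed 0.05, and these q-values may measure only technical spread between the libraries.

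ISG15 is a small protein built of a pair of ubiquitin-like domains, and it is strongly induced by interferon. It is joined to lysines of other proteins by an enzyme chain like that of ubiquitin. UBA7 (also UBE1L) is the activating enzyme, E1. UBE2L6 (also UBCH8) is the conjugating enzyme, E2. HERC5 is the main ligase, E3, of human cells, while in mouse the ligase of this pathway is Herc6. USP18 (also UBP43) cuts ISG15 off its targets and, apart from that, binds the type I interferon receptor and dampens its signal. Free ISG15 can also leave the cell and act as a cytokine. Interferon acts on the transcription of many of its target genes through a short promoter motif, the interferon-stimulated response element, ISRE.

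The RefSeq table of promoters (GRCh38.p14, the same assembly as the hg38 build of the submitters' processing notes) held windows for 4 of the 6 members, ISG15, HERC5, HERC6 and UBE2L6, the last with a window for each of 2 start sites. UBA7 and USP18 were not among them. Each window ran from 250 bases before to 50 bases after a transcription start. The 150 bases before the start are shown here for the 4 genes, since the ISRE is the motif through which interferon acts on many genes. Capitals mark each match to the ISRE core GAAANNGAAA on either strand, with overlapping matches run together.
ISG15, chr1:1013347-1013496, plus strand: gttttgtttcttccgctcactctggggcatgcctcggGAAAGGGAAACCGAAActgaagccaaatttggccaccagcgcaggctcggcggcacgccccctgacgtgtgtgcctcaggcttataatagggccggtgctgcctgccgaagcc
HERC5, chr4:88456969-88457118, plus strand: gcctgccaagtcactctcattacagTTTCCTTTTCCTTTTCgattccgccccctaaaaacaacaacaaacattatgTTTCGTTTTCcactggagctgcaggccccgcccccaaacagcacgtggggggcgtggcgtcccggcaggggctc
HERC6, chr4:88378702-88378851, plus strand: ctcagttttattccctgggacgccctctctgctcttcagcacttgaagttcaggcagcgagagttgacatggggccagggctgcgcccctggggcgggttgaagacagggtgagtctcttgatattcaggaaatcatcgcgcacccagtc
UBE2L6, chr11:57567936-57568085, minus strand: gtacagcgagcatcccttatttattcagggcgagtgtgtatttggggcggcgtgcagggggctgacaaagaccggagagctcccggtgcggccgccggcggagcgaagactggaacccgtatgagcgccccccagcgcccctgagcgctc

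In ISG15 the core was matched at 2 overlapping places, from base -113 to -104 and from -107 to -98 relative to the start. HERC5 had 3 matches, all in the reverse orientation, of which 2 overlapped at -125 to -116 and -119 to -110 and the third lay at -74 to -65. HERC6 and both UBE2L6 windows held no match, which says only that these letters are not in these windows. Of 27305 genes with a window, 4.38% held at least 1 match to the ISRE core. The motifs TTCNNNGAA (GAS, the interferon gamma activated sequence), TGTTTAC (a forkhead motif) and GGGAANTTCC (an NF-kB motif), read on both strands, were found in 9.38%, 4.19% and 0.538% of these genes and in none of the member windows. A match is a description of the letters and not evidence of binding.

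**Figure D1:**
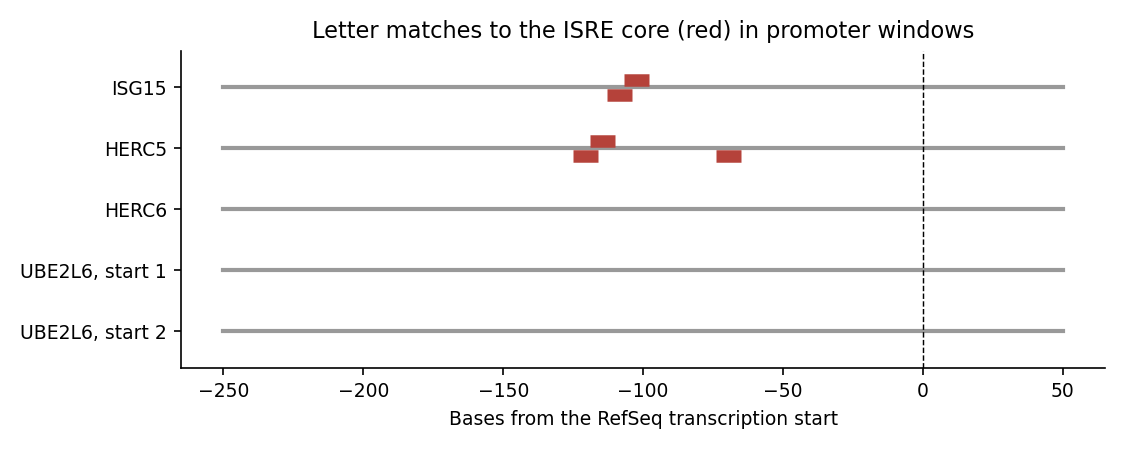
Matches to the ISRE core (red blocks) in the RefSeq promoter windows of 4 members, with the distance in bases from the transcription start on the horizontal axis and the start as a dashed line. ISG15 has 2 overlapping matches between -113 and -98, HERC5 has 3 between -125 and -65, and the windows of HERC6 and of both UBE2L6 starts have none.

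The shRNA target and the identity of the cells were read first. FOXO1 was at 17.5 FPKM in shFoxO1 olaparib cells and 89.2 FPKM in shCon olaparib cells, a log2 ratio of -2.35 in the direction of the shRNA label. In shCon olaparib and shCon DMSO cells it was at 87.7 and 54.6 FPKM, and the difference missed the threshold with q = 0.0966 by the authors' deposited table. Of 10 leukocyte markers, LYZ, NKG7, MS4A1 and CD3D were listed at 0 in all groups. The summed level of the 10 was 40.4 FPKM in shFoxO1 olaparib and 15.7 FPKM in shCon olaparib cells, and 15.5 and 20.5 FPKM in shCon olaparib and shCon DMSO cells. Nearly all of it was CD68, a lysosomal protein of macrophages found in other cells too, at 40.0, 15.2 and 18.2 FPKM in shFoxO1 olaparib, shCon olaparib and shCon DMSO cells, and not called in either comparison. PTPRC, the pan-leukocyte marker CD45, was listed at 0 in shFoxO1 olaparib cells and was at 0.144 FPKM in shCon olaparib and 1.34 FPKM in shCon DMSO cells. CD14, of monocytes, was at 0.339, 0.356 and 0.865 FPKM in the same groups. CD68 and the sum it makes up were thus highest, and PTPRC and CD14 lowest, in the group with the highest ISG15. CD14 differed little there from its level in shCon olaparib cells. PTPRC was tested in neither comparison, and CD14 only with olaparib, where it was not called. Of the epithelial markers, CDH1 was listed at 0 in all groups and EPCAM was at 0.0543 FPKM or less, while the keratins KRT8 and KRT18 were at 93.7 FPKM or more. The mesenchymal markers VIM, FN1 and SPARC were at 233 FPKM or more in all 3 groups. Markers of both kinds moved in the same comparisons as the members. With shFoxO1 1 of 4 tested epithelial markers was called higher and 2 lower, and 2 of 6 mesenchymal markers higher and 3 lower. Over all tested genes the shares were 22.6% higher and 19.8% lower, so calls in both directions were common. KRT8 fell to 93.7 FPKM in shFoxO1 olaparib cells, against 331 FPKM in shCon olaparib cells, and KRT5, a basal keratin, to 0.842 FPKM against 3.02 FPKM. AXL, a receptor kinase, fell to 34.5 FPKM against 87.4 FPKM, while CDH2, N-cadherin, rose, at 30.3 FPKM against 18.6 FPKM. With olaparib KRT5 rose, at 2.96 FPKM in shCon olaparib cells against 0.485 FPKM in shCon DMSO cells. KRT18 fell to 110 FPKM against 213 FPKM, and CDH2 to 18.2 FPKM against 42.9 FPKM. The part of these markers in the results on the members was not tested. In bulk RNA, fewer cells that express a gene and less RNA per cell cannot be told apart.

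The first comparison asked how the machinery differed with shFoxO1 under olaparib. The modifier, the E2, both HERC ligases and the protease were higher in shFoxO1 cells, by 1.92-fold to 123-fold, while the E1 did not pass the test. Calls were made for 5 of the 6 members, all of them higher. Among the 14660 genes tested, 22.6% had a call higher and 19.8% a call lower. The median log2 ratio was 2.82 over the 6 members and 0.01 over all tested genes. The 5 called members shared the q of 0.000244 in the authors' deposited table, the smallest it holds and that of 3001 genes, so they cannot be ranked by it.

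ISG15, the modifier, is gene ENSG00000187608, at 1013497 to 1014540 of chromosome 1 in the GRCh38.p14 assembly that all gene positions here refer to. It was at 6544 FPKM in shFoxO1 olaparib cells against 53.2 FPKM in shCon olaparib cells. It rose 123-fold, a log2 ratio of 6.94, the place 43 from the top among 14428 tested genes with a ratio. In shFoxO1 olaparib cells its FPKM was the second highest (rank 2) of the whole list, against rank 1808 in shCon olaparib cells and rank 95 in shCon DMSO cells. In the ranking, genes with too many reads for a test stand at their listed values. In the comparison of olaparib with DMSO there were 13 such genes, 11 of them at 0 in all groups. Such genes were not counted in the comparison with shFoxO1.

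Along the enzyme chain, the steps did not move alike. UBA7, the E1 (ENSG00000182179, chromosome 3, 49805209 to 49813953), was at 22.8 FPKM in shFoxO1 olaparib cells and 26.1 FPKM in shCon olaparib cells and was not called, with a log2 ratio of -0.19, or -0.37 after quantile normalization (the authors' deposited table gives q = 0.604). UBE2L6, the E2 (ENSG00000156587, chromosome 11, 57551662 to 57567935), rose 1.92-fold, at 205 FPKM in shFoxO1 olaparib cells against 107 FPKM in shCon olaparib cells (log2 ratio 0.94). It was the smallest rise of the 5 called members, at rank 2313 of the tested genes.

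The ligases had larger ratios. HERC5, the E3 (ENSG00000138646, chromosome 4, 88457119 to 88506163), was at 18.5 FPKM in shFoxO1 olaparib cells against 0.441 FPKM in shCon olaparib cells, a 42.0-fold rise (log2 ratio 5.39, rank 93). Since its level in shCon olaparib cells was under 1 FPKM, the log2 ratio depends on how low values are handled, and on the log2(FPKM + 1) scale it was 3.76. HERC6 (ENSG00000138642, chromosome 4, 88378852 to 88443097), its neighbour, was at 40.1 FPKM in shFoxO1 olaparib cells against 4.25 FPKM in shCon olaparib cells, a 9.43-fold rise (log2 ratio 3.24, rank 297). The listed regions of HERC6 and HERC5 lie 14007 bases apart on chromosome 4 and do not overlap. HERC3, the next gene of the cluster, begins 17646 bases beyond HERC5 and was lower, at 5.37 FPKM in shFoxO1 olaparib cells against 9.89 FPKM in shCon olaparib cells (q = 0.0124 in the authors' deposited table).

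USP18, the protease (ENSG00000184979, chromosome 22, 18150170 to 18177397), was at 14.3 FPKM in shFoxO1 olaparib cells against 2.69 FPKM in shCon olaparib cells. It rose 5.32-fold (log2 ratio 2.41, rank 515). USP41, a near copy of USP18 on the same chromosome, was listed at 0 in all 3 groups. How reads were divided between the copies is not stated, so the USP18 values are uncertain to that extent.

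**Figure D2:**
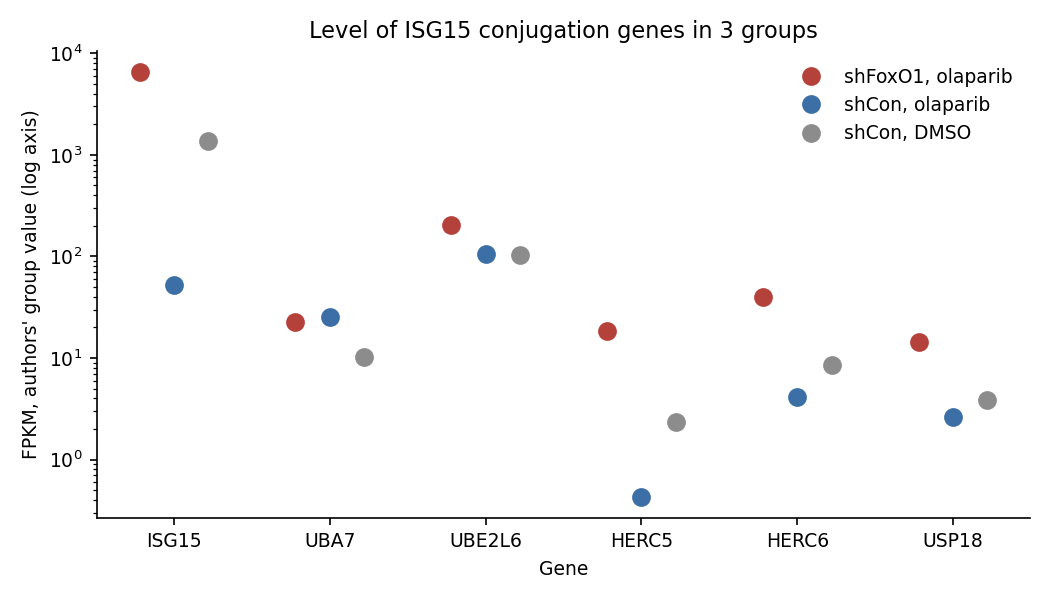
FPKM (log axis) of the 6 members, 1 deposited value per group, for shFoxO1 olaparib (red), shCon olaparib (blue) and shCon DMSO (grey). ISG15 spans 6544, 52.3 and 1366 FPKM in that order, while UBE2L6 stays between 102 and 205 FPKM and UBA7 is the only member whose red point lies below its blue point.

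The second comparison asked what olaparib did to the machinery in control cells. ISG15, HERC5 and HERC6 were lower with the drug, UBA7 was higher, and neither UBE2L6 nor USP18 passed the test. Thus 3 of the 6 members were called lower and 1 higher. Among the 14841 genes tested, 23.1% had a call lower and 15.6% a call higher. The median log2 ratio was -0.78 over the members and -0.07 over all tested genes. Both comparisons use the group shCon olaparib, so a low value of a gene there makes its ratio low in one and high in the other, and the comparisons are not independent of each other.

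ISG15 was at 52.3 FPKM in shCon olaparib cells against 1366 FPKM in shCon DMSO cells. It was thus abundant without the drug, and 26.1-fold lower with it (log2 ratio -4.71), the place 77 from the bottom of 14667 tested genes with a ratio. Its q of 0.000284 is the smallest in the authors' deposited table and that of 2610 genes. UBA7 moved in the other direction, at 25.6 FPKM in shCon olaparib cells against 10.1 FPKM in shCon DMSO cells. This 2.53-fold rise (log2 ratio 1.34) carried the same q of 0.000284 in the authors' deposited table and stood at rank 1234 from the top. UBA7 was the only member called higher with the drug. UBE2L6 was at 105 FPKM in shCon olaparib cells and 102 FPKM in shCon DMSO cells (log2 ratio 0.04, or 0.43 after quantile normalization, with q = 0.87 from the authors' deposited table).

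HERC5 was at 0.432 FPKM in shCon olaparib cells against 2.37 FPKM in shCon DMSO cells, 5.48-fold lower (log2 ratio -2.46, or -1.23 on the log2(FPKM + 1) scale). HERC6 was at 4.17 FPKM in shCon olaparib cells against 8.53 FPKM in shCon DMSO cells, 2.04-fold lower (q = 0.00144 in the authors' deposited table). Both ligases were thus low without the drug and lower with it. USP18 was at 2.65 FPKM in shCon olaparib cells and 3.84 FPKM in shCon DMSO cells (log2 ratio -0.54), and its q of 0.0501 in the authors' deposited table lay just outside the threshold. With the adjustment made over genes that average 1 FPKM or more, it would have been called (q = 0.048).

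**Figure D3:**
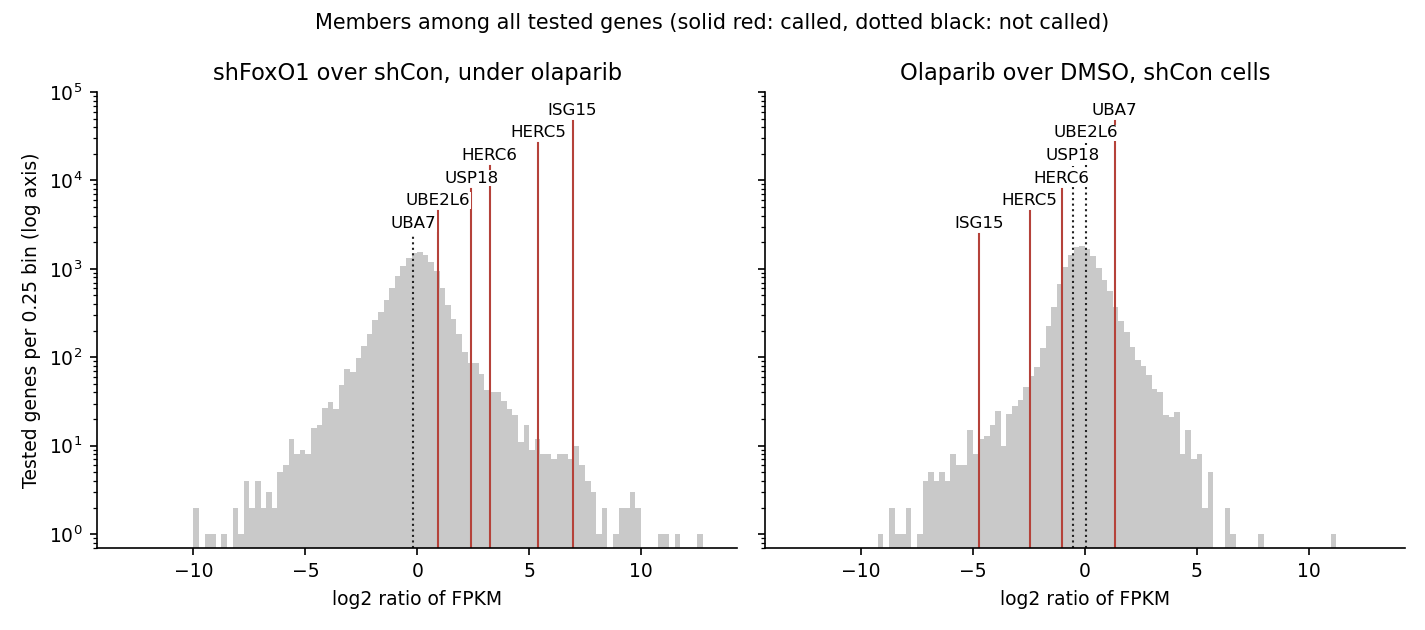
Histograms of the log2 ratio of FPKM over all tested genes with a ratio, in bins of 0.25, with the number of genes on a log axis, for shFoxO1 over shCon under olaparib (left) and olaparib over DMSO in shCon cells (right). Vertical lines place the 6 members, solid red where called and dotted black where not. ISG15 stands at 6.94 on the left and -4.71 on the right, and UBA7 at -0.19 and 1.34.

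The groups shFoxO1 olaparib and shCon DMSO were never set against each other in a deposited test. To put them side by side, the values of the table with shFoxO1 were divided by 1.017, the median ratio of its shCon olaparib values to those of the table with DMSO. On that scale every member was higher in shFoxO1 olaparib than in shCon DMSO cells, with log2 ratios from 0.98 (UBE2L6) to 2.94 (HERC5) and a median of 2.04. At least 2-fold differences were seen in 5 of the 6 members, where 7.72% of 14173 genes tested in both tables were at least 2-fold higher. ISG15 stood at 6432 FPKM in shFoxO1 olaparib cells against 1366 FPKM in shCon DMSO cells, 4.71-fold higher. UBA7 was at 22.4 and 10.1 FPKM, 2.21-fold higher in shFoxO1 olaparib cells, and its 25.6 FPKM in shCon olaparib cells was above both. HERC5 was 7.68-fold, HERC6 4.62-fold and USP18 3.67-fold higher. No test stands behind these values.

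Since FPKM is a level per length of transcript, members can also be compared within a group. In shFoxO1 olaparib cells the order from high to low was ISG15, UBE2L6, HERC6, UBA7, HERC5 and USP18. In shCon olaparib cells UBE2L6 led at 105 FPKM, ahead of ISG15 at 52.3 FPKM and UBA7 at 25.6 FPKM, and HERC6, USP18 and HERC5 were at 4.17 FPKM or less. In shCon DMSO cells the order was ISG15, UBE2L6, UBA7, HERC6, USP18 and HERC5. Whether neighbours in these orders differ beyond the spread between libraries cannot be seen from 1 value per group.

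The level of the modifier relative to its enzymes differed between the groups. ISG15 FPKM was 287 times that of UBA7 in shFoxO1 olaparib cells, 2.04 times in shCon olaparib cells and 135 times in shCon DMSO cells. Relative to UBE2L6 it was 31.9 times, 0.497 times and 13.3 times in the same groups, so that in shCon olaparib cells the level of the modifier was below that of its E2. Relative to HERC5 it was 354 times in shFoxO1 olaparib cells, 121 times in shCon olaparib cells and 576 times in shCon DMSO cells. HERC6 was above HERC5 in every group, 2.16 times in shFoxO1 olaparib, 9.65 times in shCon olaparib and 3.60 times in shCon DMSO cells. These ratios rest on the authors' transcript lengths. For ISG15 the listed region begins at 1001138, well before the RefSeq start at 1013497, and takes in 2 other listed genes, both at 0 in all groups.

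**Figure D4:**
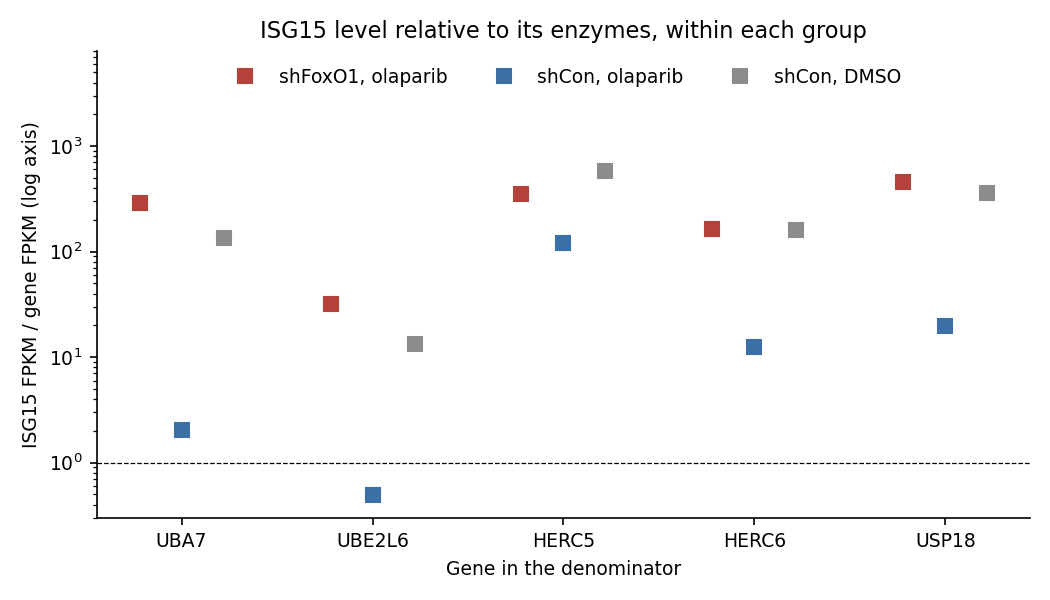
Ratio of ISG15 FPKM to the FPKM of each enzyme within a group (log axis), for shFoxO1 olaparib (red), shCon olaparib (blue) and shCon DMSO (grey), with a dashed line at equal levels. The ratio to UBE2L6 in shCon olaparib cells, 0.497, is the only one below the line, and the blue point is the lowest for each enzyme.

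Other genes of the ISG15 pathway were read from a list of 12: the further reported ligases TRIM25 and ARIH1, the proteases USP2, USP5, USP14, USP16 and USP21 with activity reported on ISG15, the chains ITGAL and ITGB2 of the receptor for extracellular ISG15, SKP2, which marks USP18 for degradation, and HDAC6 and SQSTM1, which bind ISG15 conjugates. The counts of this list and of those below stand beside the shares over all tested genes. These were 22.6% higher and 19.8% lower with shFoxO1, and 15.6% higher and 23.1% lower with olaparib. With shFoxO1 1 of 10 tested genes was called higher and 2 lower, and the median log2 ratio was -0.02. SKP2 rose, at 30.3 FPKM in shFoxO1 olaparib cells against 18.2 FPKM in shCon olaparib cells. HDAC6 fell to 9.68 FPKM in shFoxO1 olaparib cells, against 21.5 FPKM in shCon olaparib cells, and USP2 to 2.34 FPKM against 4.26 FPKM. USP14, at 49.8 and 36.3 FPKM in shFoxO1 olaparib and shCon olaparib cells, missed the threshold, with q = 0.0542 by the authors' deposited table. With olaparib USP2, USP16 and HDAC6 were called higher and TRIM25, USP5 and USP21 lower. The median log2 ratio was then -0.27, or 0.03 after quantile normalization. ITGAL and ITGB2 were at 0.242 FPKM or less in every group and were not tested.

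Transcripts of interferons themselves were listed at or near 0, with the exception of IFNL1. Of 28 genes for interferons and their receptors, 6 were tested, 5 of them receptor chains. IFNB1 and all listed IFNA genes were at 0 in all groups. IFNL1, a type III interferon, named here after its values were seen, was listed at 9.98 FPKM in shFoxO1 olaparib cells, 0 in shCon olaparib cells and 1.45 FPKM in shCon DMSO cells, called higher with shFoxO1 and lower with olaparib. IFNLR1, its own receptor chain, was below 1 FPKM in every group and was not tested. With shFoxO1 4 of the 6 were called higher and 1 lower, and the median log2 ratio of the 5 with a ratio was 1.18. Both chains of the type I receptor, the receptor that USP18 restrains, rose. IFNAR1 was at 24.4 FPKM in shFoxO1 olaparib cells against 9.33 FPKM in shCon olaparib cells, and IFNAR2 at 21.7 FPKM against 9.56 FPKM. IFNGR2, of the interferon gamma receptor, rose, at 61.3 FPKM against 15.2 FPKM. IFNGR1, its partner, fell to 58.6 FPKM in shFoxO1 olaparib cells, against 117 FPKM in shCon olaparib cells. IL10RB was at 16.1 and 11.8 FPKM and was not called. With olaparib 1 of the 6 was called higher and 2 lower, with a median of -0.22.

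Among 10 signalling factors of interferon, shFoxO1 gave a call higher for 6 and a call lower for none, with a median log2 ratio of 0.61. IRF7, which drives interferon genes, had 67.1 FPKM in shFoxO1 olaparib cells against 8.63 FPKM in shCon olaparib cells. IRF1 had 94.7 FPKM against 16.3 FPKM, and both rose. The kinases TYK2 and JAK1 were not called, at 46.6 and 62.1 FPKM in shFoxO1 olaparib cells against 44.8 and 64.5 FPKM in shCon olaparib cells. With olaparib 3 were called higher and 3 lower, and the median was -0.24, or 0.03 after quantile normalization. IRF7 fell to 8.49 FPKM in shCon olaparib cells, against 21.0 FPKM in shCon DMSO cells, and IRF1 to 16.0 FPKM against 51.3 FPKM. The transcription factors STAT2 and IRF9 were both higher with shFoxO1, with log2 ratios of 0.72 and 2.35. With olaparib STAT2 rose (log2 ratio 0.81), and IRF9 was not called, at a log2 ratio of -0.85.

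Messages of 19 proteins reported to carry ISG15 were mixed, as 7 were called higher and 3 lower with shFoxO1 and the median log2 ratio of 18 genes was 0.47. IFIT1 and IFIT3, themselves induced by interferon, had log2 ratios of 8.25 and 7.96. DDX58 was at 7.13, but MX1 rose less, at 1.22, and EIF2AK2, at 0.58, was not called. MAPK3, the kinase ERK1, fell to 10.3 FPKM in shFoxO1 olaparib cells, against 31.4 FPKM in shCon olaparib cells. With olaparib 2 of 18 tested were called higher and 7 lower, median -0.37. MX1 and EIF2AK2 were not called there, at log2 ratios of 0.47 and -0.30.

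The relatives of the members in the ubiquitin system were read from 5 further lists. Of the other HERC genes, HERC1, HERC2 and HERC4 were not called in either comparison, with log2 ratios from 0.19 to 0.61 with shFoxO1 and from -0.53 to 0.36 with olaparib. HERC3, described above, also rose with olaparib, at 9.71 FPKM in shCon olaparib cells against 5.36 FPKM in shCon DMSO cells. Of 9 other E1 enzymes or their subunits, 5 were called higher and 1 lower with shFoxO1, and none higher and 4 lower with olaparib. Their median log2 ratios were 0.43 and -0.44, or 0.23 and -0.19 after quantile normalization. ATG7, the E1 of autophagy, had the highest ratio with shFoxO1, at 49.8 FPKM in shFoxO1 olaparib cells against 13.0 FPKM in shCon olaparib cells. SAE1, of the SUMO E1, fell to 48.8 FPKM against 87.6 FPKM. UBA1, the main ubiquitin E1, rose with shFoxO1 (log2 ratio 0.51). With olaparib it fell, at 109 FPKM in shCon olaparib cells against 192 FPKM in shCon DMSO cells, where UBA7 rose.

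Of 37 tested E2 enzymes other than UBE2L6, 17 were called higher and 2 lower with shFoxO1, and 1 higher and 10 lower with olaparib, with median log2 ratios of 0.44 and -0.29 (0.01 with olaparib after quantile normalization). The rise of UBE2L6 with shFoxO1, at 0.94, was above that median, but several others of the list rose more, among them CDC34 at 1.65. After quantile normalization UBE2L6 was at 0.65, against a median of 0.22 for the list. UBE2L3, the closest relative of UBE2L6, was at 63.0 FPKM in shFoxO1 olaparib cells against 47.1 FPKM in shCon olaparib cells, a log2 ratio of 0.42 (q = 0.0153 in the authors' deposited table). The highest ratio was that of UBE2F, an E2 of the modifier NEDD8, at 1.70, and the lowest that of UBE2C, an E2 of the anaphase-promoting complex, at -1.66. Of 18 tested modifiers other than ISG15, 6 rose with shFoxO1 and none fell, and with olaparib none rose and 4 fell, with medians of 0.23 and -0.25. GABARAPL1, of the ATG8 family of autophagy, had the highest log2 ratio of them with shFoxO1, 3.74, at 58.5 FPKM in shFoxO1 olaparib cells against 4.38 FPKM in shCon olaparib cells. UBD, which encodes FAT10, the other modifier with a pair of ubiquitin-like domains, was at 0.125 FPKM or less in all groups and was not tested.

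USP proteases other than USP18 had 10 of 41 tested members called higher and 7 lower with shFoxO1, or 24.4% and 17.1%. These shares were near the 22.6% and 19.8% of all tested genes. With olaparib 14 were called higher and 11 lower, or 34.1% and 26.8%, against 15.6% and 23.1% of all tested genes. The medians were -0.03 with shFoxO1 and 0.06 with olaparib. The highest log2 ratios with shFoxO1 were those of USP28, 1.42, and USP3, 1.09, both below the 2.41 of USP18. The lowest was that of USP53, at 39.4 FPKM in shFoxO1 olaparib cells against 201 FPKM in shCon olaparib cells. The lists were chosen by function with earlier results of these data known, and their counts are descriptions.

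**Figure D5:**
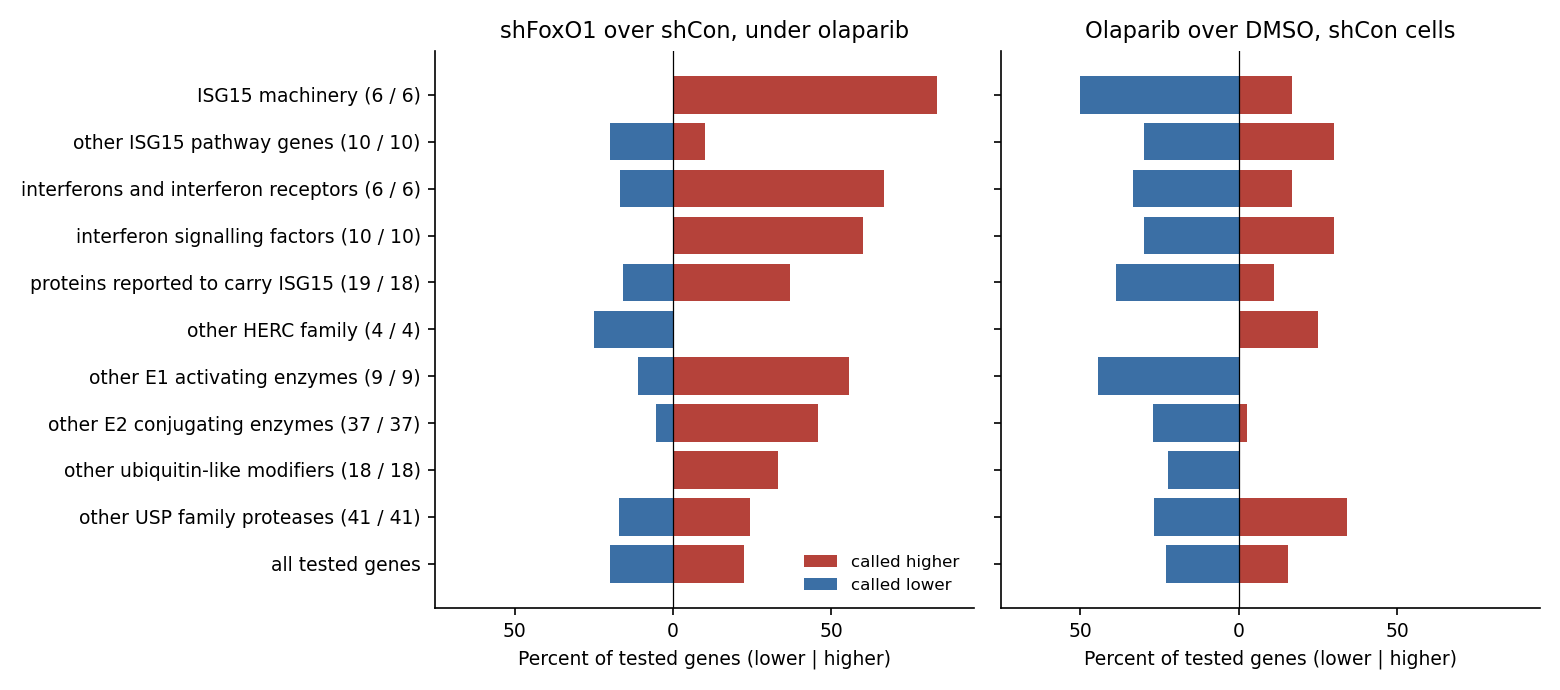
Percent of the tested genes of each list called higher (red, to the right) and lower (blue, to the left) with shFoxO1 under olaparib (left panel) and with olaparib in shCon cells (right panel); the numbers in brackets are genes tested in the first and second comparison, and the bottom row gives all tested genes. With shFoxO1 5 of 6 members of the ISG15 machinery are called higher against 22.6% of all genes, and with olaparib 3 of 6 are called lower against 23.1%.

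The genes whose pattern was most like that of ISG15 were sought over the 3 groups, by the distance between the pairs of log2 ratios among 8846 genes tested in both tables, above 0 in all groups and at 10 FPKM or more in at least 1 group. Since both ratios contain shCon olaparib, likeness in one is partly likeness in the other. The 8 nearest were SLAMF8, BIRC3, IL7R, KRT34, ZBTB32, SCG5, DDX58 and FOXF1, at distances from 0.22 to 0.58 on the log2 scale. In shCon olaparib cells SLAMF8, KRT34, ZBTB32 and FOXF1 were at 0.257, 0.197, 0.187 and 0.156 FPKM, so their ratios, distances and places in this order rest on values near 0. None of the other 5 members was among them. SLAMF8 was at 34.0, 0.257 and 7.74 FPKM in shFoxO1 olaparib, shCon olaparib and shCon DMSO cells. DDX58, which encodes the RNA sensor RIG-I, was at 172, 1.21 and 22.3 FPKM. Of the 8 genes, 6 had a promoter window, while DDX58 and FOXF1 had none. None of these 6 windows held the ISRE core, which 4.38% of all genes with a window held. At so low a share, its absence from 6 windows does not set these genes apart. The gene nearest to UBA7 was USP15, at 28.6, 30.3 and 12.2 FPKM in the 3 groups in that order. For UBE2L6 it was CCDC117, for HERC5 NRG2, for HERC6 XKR8 and for USP18 TMEM135, at distances of 0.02, 0.06, 0.12 and 0.10.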

How the data were processed

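After depletion of ribosomal RNA, total RNA was sequenced from directional libraries with paired ends, per the labels' protocols, which name 2 sequencing providers without assigning them to libraries. The submitters' processing notes list CASAVA 1.4, HISAT2 2.1.0, Cufflinks 2.2.1 and hg38, with no roles given. The authors deposited 2 tables with FPKM values for each group and p-values and q-values for each gene, per the file headers. It is not stated whether a group's value draws on both of its libraries.

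Log2 ratios come from these FPKM values, with no pseudocount added, and genes at 0 in a group got none (232 tested genes with shFoxO1, 174 with olaparib). The q-values the authors deposited match a Benjamini-Hochberg adjustment of their p-values over the tested genes within 5.22e-07. The adjustment was tested on simulated p-values and the quantile normalization on rescaled values. These tests do not bear on the q-values the authors deposited, from which the calls come. Promoters were searched on both strands for exact letters. Protein sequences were not analysed here. Python 3.11.15, pandas 2.3.3 and numpy 2.4.6 were used.

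Named genes were the members, FOXO1, up to 2 highest and 2 lowest log2 ratios of each list with shFoxO1, the nearest genes and the paralogs UBE2L3, UBA1, USP41 and HERC3. Genes named beyond that, among them IFNL1, IFNLR1, IFNAR2, STAT2, IRF9, MX1, EIF2AK2, UBD and the pathway genes called with olaparib, were chosen after their values were seen. Some genes that the rule names are not reported here. The members and lists were chosen with earlier results of these data known. Of 50 symbols in the list of USP proteases, 49 matched. Alternatives tried were 2 pseudocounts, quantile normalization, median scaling, other sets of genes in the adjustment and a stricter q.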

Additional observations from a re-analysis of the deposited data

How the results depend on the processing

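Over the 102 recomputed values of single members, all kept their direction. The direction could change only with a pseudocount or another scaling, since another adjustment or a stricter q leaves the log2 ratio as it is. A call could change only with another adjustment or a stricter q, since the other settings keep the authors' q or have none. The sole change of a call was that of USP18 with olaparib (q = 0.048 over genes averaging 1 FPKM or more, against 0.0501, and 0.204 over every listed gene). Counts of members called, or at least 2-fold higher, moved by at most 1 gene in 31 recomputed values: 4 in place of 3 were called lower with olaparib under that filter, and 6 in place of 5 were at least 2-fold higher in shFoxO1 olaparib than in shCon DMSO cells with quantile normalization or without rescaling the table with shFoxO1. With a pseudocount, quantile normalization or median scaling, the counts of called members kept the authors' q. Those counts could therefore change only if a called member reversed its direction, and their stability says little. Median scaling put the median of the tested genes with olaparib at 0.04, against -0.07. The log2 ratio of HERC5 was the one that low values moved most. A count of a list was taken as moved if it changed by over 1.5 times or to 0. A median log2 ratio was taken as moved if it shifted by log2 of 1.5 or more. Smaller shifts were not, even where the sign changed. With quantile normalization the olaparib median of E2 enzymes went from -0.29 to 0.01. That of other ISG15 pathway genes went from -0.27 to 0.03, and that of signalling factors from -0.24 to 0.03. By this rule 20 of 240 recomputed values of lists moved. With every listed gene in the adjustment, or equally with q at most 0.01, genes called lower with shFoxO1 were 1 in place of 2 for other ISG15 pathway genes, 0 in place of 1 for HERC genes, 1 in place of 2 for E2 enzymes and 4 in place of 7 for USP proteases; genes called higher with olaparib were 1 in place of 3 for other ISG15 pathway genes, 0 in place of 1 for E2 enzymes and 7 in place of 14 for USP proteases. E1 enzymes called higher with shFoxO1 were 3 in place of 5 at q 0.01. With the filter at 1 FPKM, interferon genes called lower with olaparib were 1 in place of 2. For cell type markers, epithelial genes called higher with shFoxO1 were 0 in place of 1 with that filter, with a median log2 ratio of -0.53 or -0.83 with a pseudocount of 1 or 0.1 in place of -1.82, and mesenchymal genes 1 in place of 2 at q 0.01. No paired analysis was possible because the tables hold 1 value per group. Leaving out replicates was not run for the same reason.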
